A study of Mus musculus with 12 samples.

Results

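The D cyclins, their partner kinases and the RB pocket proteins are 8 genes: the cyclins *Ccnd1*, *Ccnd2* and *Ccnd3*, the kinases *Cdk4* and *Cdk6*, and the pocket proteins *Rb1*, *Rbl1* (p107) and *Rbl2* (p130). They were taken by gene symbol from the table of 24091 genes, and all 8 were found, each as a single row. Together they form the switch that lets a cell leave G1. A D cyclin binds CDK4 or CDK6, and the active kinase phosphorylates the pocket proteins, which then release the E2F transcription factors and allow the genes of DNA replication to be transcribed. In the postnatal cerebellum, Sonic Hedgehog drives the division of granule cell progenitors, from which medulloblastomas of the SHH subgroup arise, and cyclins D1 and D2 are known as outputs of that signal in these progenitors. Among the pocket proteins, *Rbl2* is tied to resting and differentiated cells, whereas *Rbl1* is itself an E2F target that is made mainly in dividing cells.

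RNA was sequenced from 12 mouse cerebellar samples in 4 groups of 3. The tumors and the adjacent cerebella came from the same 3 mice, GB344, GB359 and GB370, of genotype Brca2-mut;Trp53-mut, and the controls were cerebella of 3 Brca2-mut;Trp53-WT mice (GB361, GB508, GB512), called Brca2-mut controls here, and of 3 Brca2-WT;Trp53-mut mice (GB517, GB519, GB520), called Trp53-mut controls. In this model, Cre driven by the human *GFAP* promoter deletes *Brca2* exons 3 and 4 while the central nervous system develops, and *Trp53* is lost in all tissues, with a neomycin cassette in place of exons 2 to 6. No treatment is named in the labels, the ages of single mice are not given there, and the study describes the control tissue as age-matched adult cerebellum. The control genotypes differ at both genes and no group was wild type at both, so effects of *Brca2* and of *Trp53* cannot be told apart. Expression is given as TPM, the length-scaled abundance of a gene's transcripts among all transcripts of a sample, so levels can be compared between genes. Gene-level TPM does not show which exons were read and so does not check the genotype labels.

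Markers of other cells differed between the groups before any cell cycle gene was considered. Mature granule cell markers summed to 103 to 372 TPM in the tumors and 2447 to 3151 TPM in the 6 controls, and Purkinje cell and oligodendrocyte markers were lower in the tumors too, with all 5 called lower in each of the 3 lists. Of 5 astrocyte and Bergmann glia markers 4 were called lower, whereas 3 of 4 oligodendrocyte precursor markers were called higher, and their sums were 207 to 427 TPM in the tumors and 103 to 214 TPM in the controls. Of 5 microglia markers 0 were called, and of 5 endothelial cell and pericyte markers 1 was called lower. Of 5 granule cell progenitor markers 3 reached 1 TPM in at least 3 controls. Among those 3, 2 were called higher and *Zic1* was not (log2 fold change -0.0092). Over all genes tested, 21.5% were called lower and 14.4% higher. *Atoh1*, the transcription factor of granule cell progenitors, stood at 227 ± 101 TPM (SD, n = 3) in the tumors and 0.0818 ± 0.0774 TPM (SD, n = 6) in the controls. Adjacent cerebellum was not uniform, since *Atoh1* was at 59.4 TPM in GB344, 50.5 TPM in GB359 and 4.997 TPM in GB370, although mature granule cell markers there summed to 1905 to 2634 TPM. Choroid plexus markers summed to 3943 to 5155 TPM in the 3 Trp53-mut controls and to 14.0 to 865 TPM in the Brca2-mut controls. In bulk tissue, fewer cells of a type and less RNA per cell cannot be told apart, and the part of cell mixture in the results that follow was not tested.

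*Ccnd1* encodes cyclin D1 (chromosome 7, 144929931 to 144939831, minus strand, GRCm38.p6). It was at 199 TPM in the tumor of GB344, 261 TPM in that of GB359 and 260.3 TPM in that of GB370. In the 6 controls it ranged from 18.2 to 30.6 TPM with a median of 27.3 TPM. Every tumor was above every control, and the tumor mean was 9.32 times the control mean. Adjacent cerebellum held 111 TPM in GB344, 88.0 TPM in GB359 and 19.9 TPM in GB370, so that GB370 lay within the control range and the other adjacent samples lay above it.

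*Ccnd2* encodes cyclin D2, the D cyclin most closely tied to granule cell progenitors (chromosome 6, 127125162 to 127152188, minus strand). Its level in the tumors was 254 TPM in GB344, 823 TPM in GB359 and 659.6 TPM in GB370. The controls ranged from 3.27 to 15.7 TPM around a median of 5.66 TPM. The groups did not overlap, and the mean ratio of 81.8 was the largest among the 8 genes. In the adjacent samples *Ccnd2* was at 224 TPM in GB344, 160 TPM in GB359 and 22.4 TPM in GB370, all above the highest control.

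*Ccnd3* encodes cyclin D3 (chromosome 17, 47505051 to 47599689, plus strand). Taking the mice in the order GB344, GB359, GB370, its level was 55.3, 51.6 and 56.4 TPM in tumor and 61.3, 46.5 and 45.3 TPM in adjacent cerebellum. The 6 controls ranged from 44.3 to 58.4 TPM with a median of 49.2 TPM. All 4 groups overlapped.

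*Cdk4* encodes a kinase that is active only when bound to a D cyclin (chromosome 10, 127063535 to 127067288, plus strand). The tumors held 674 TPM in GB344, 673 TPM in GB359 and 840.3 TPM in GB370, in the top 1% of genes above 0 TPM in each tumor (percentile 99.1 to 99.3). The controls ranged from 64.2 to 97.9 TPM with a median of 71.0 TPM. No tumor came near a control, and the mean ratio was 9.80. Adjacent cerebellum had 227 TPM in GB344, 194 TPM in GB359 and 86.5 TPM in GB370, the last within the control range.

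*Cdk6* encodes the sister kinase (chromosome 5, 3341004 to 3531008, plus strand). Tumor levels were 41.8 TPM in GB344, 101 TPM in GB359 and 69.4 TPM in GB370. The controls ranged from 0.591 to 1.604 TPM with a median of 0.739 TPM, and only GB512 exceeded 1 TPM. The mean ratio was 79.5, close to that of *Ccnd2*, and the adjacent cerebella lay between at 13.0 TPM in GB344, 21.1 TPM in GB359 and 2.25 TPM in GB370, all above the highest control. Since a gene had to reach 1 TPM in 3 samples of a comparison to be tested, *Cdk6* entered the comparison of tumors with controls only through its tumor values.

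*Rb1* encodes the retinoblastoma protein (chromosome 14, 73192858 to 73325951, minus strand). In the order GB344, GB359, GB370, tumors held 32.2, 44.1 and 32.3 TPM and adjacent cerebella 46.1, 33.9 and 27.9 TPM. The controls ranged from 22.9 to 42.9 TPM with a median of 28.7 TPM. Tumor, adjacent and control values overlapped.

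*Rbl1* encodes p107 (chromosome 2, 157145893 to 157204534, minus strand). In the tumors it was at 16.3 TPM in GB344, 22.7 TPM in GB359 and 23.8 TPM in GB370, and in the controls it ranged from 2.55 to 4.85 TPM with a median of 3.88 TPM. Every tumor was above every control, with a mean ratio of 5.41. The adjacent samples, at 10.3 TPM in GB344, 7.68 TPM in GB359 and 5.17 TPM in GB370, were above all controls and below all tumors.

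*Rbl2* encodes p130 (chromosome 8, 91070057 to 91123844, plus strand). It was at 15.9 TPM in the tumor of GB344, 31.2 TPM in that of GB359 and 17.5 TPM in that of GB370. Control levels were 29.3 to 36.5 TPM with a median of 33.0 TPM, and adjacent levels were 33.1, 31.5 and 29.0 TPM. The tumors of GB344 and GB370 lay below every control and every adjacent sample, whereas the tumor of GB359 lay within the control range.

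**Figure D1:**
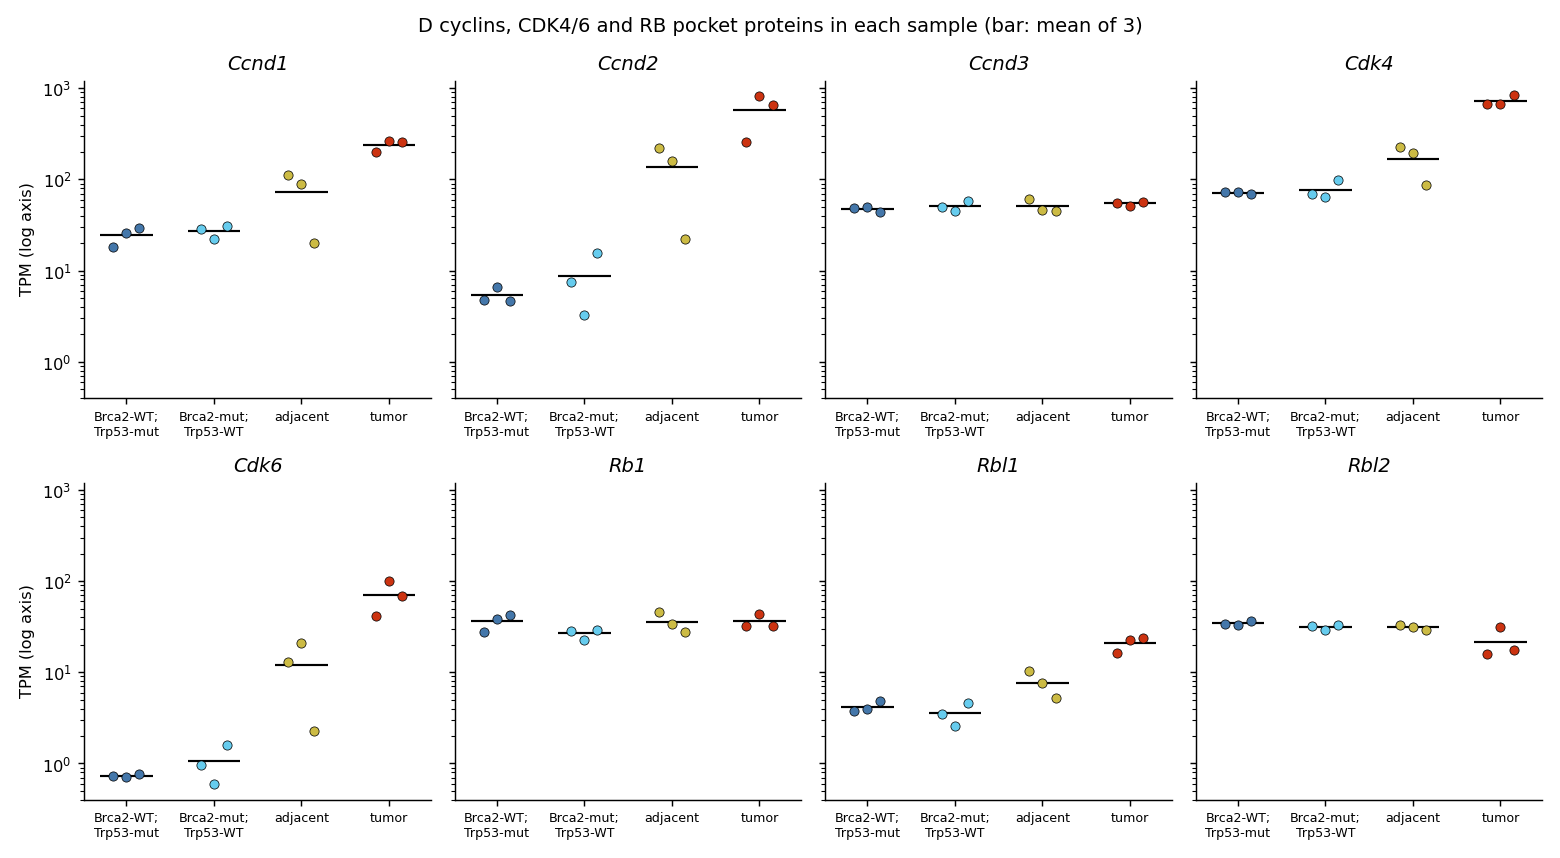
TPM of each of the 8 genes (log axis) in the 3 samples of each of the 4 groups, with the mean as a bar; adjacent and tumor points are ordered GB344, GB359, GB370. *Ccnd1*, *Ccnd2*, *Cdk4*, *Cdk6* and *Rbl1* had all 3 tumors above all 6 controls, as did 28.3% of all genes tested. *Ccnd3* stayed between 44.3 and 61.3 TPM in all 12 samples.

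Promoter sequence is shown for *Cdk4*, *Cdk6* and *Rbl1*, which rose in the tumors and have an entry in the promoter table used (5 of the 8 genes did). Each line gives the 250 bases before a transcript start listed by RefSeq on GRCm38.p6, 5′ to 3′ on the gene's strand, at chr10:127063285-127063534 (plus), chr5:3343643-3343892 (plus) and chr2:157204535-157204784 (minus). The *Cdk6* window lies within the gene span given above, before a start downstream of its first base. Capitals mark matches to the motifs searched on both strands, which were the E2F letters TTTCCCGC, TTTGGCGC, TTTCGCGC and TTTGCCGC, the GLI letters GACCACCCA and the E-box CACGTG bound by MYC proteins.
Cdk4 promoter: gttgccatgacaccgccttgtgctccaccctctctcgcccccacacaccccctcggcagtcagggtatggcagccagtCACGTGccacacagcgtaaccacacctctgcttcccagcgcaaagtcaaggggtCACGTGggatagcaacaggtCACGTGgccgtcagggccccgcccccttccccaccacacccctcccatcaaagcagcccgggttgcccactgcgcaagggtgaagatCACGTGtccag
Cdk6 promoter: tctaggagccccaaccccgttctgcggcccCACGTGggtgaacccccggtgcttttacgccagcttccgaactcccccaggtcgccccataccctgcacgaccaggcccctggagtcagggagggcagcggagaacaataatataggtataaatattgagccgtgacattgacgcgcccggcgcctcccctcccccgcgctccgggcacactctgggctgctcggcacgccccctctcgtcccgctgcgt
Rbl1 promoter: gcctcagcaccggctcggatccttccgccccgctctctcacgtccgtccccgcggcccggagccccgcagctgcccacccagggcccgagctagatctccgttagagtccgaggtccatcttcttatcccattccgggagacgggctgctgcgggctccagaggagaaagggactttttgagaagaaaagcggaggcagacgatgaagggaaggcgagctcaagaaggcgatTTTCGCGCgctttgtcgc
The *Cdk4* window held 4 E-boxes, the *Cdk6* window held 1, and the *Rbl1* window held 1 E2F match between 18 and 11 bases before the start. No 2 of these matches overlapped. Of 32851 promoter windows of this length, 6.02% held an E-box, 1.86% an E2F match and 0.225% a GLI match. The cell cycle element TTTGAA, found in 16.0% of windows, was not in these 3 windows and was in that of *Rbl2*. A match is a description of the letters, and no binding was measured. GC content was 64.4% (*Cdk4*), 66% (*Cdk6*) and 63.6% (*Rbl1*), with a median of 52.4% over all windows.

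The comparison of tumors with the 6 controls asks which parts of this switch differ between medulloblastoma and tumor-free cerebellum. Of the 8 genes, *Ccnd1*, *Ccnd2*, *Cdk4*, *Cdk6* and *Rbl1* were called higher in the tumors and none was called lower. *Cdk6* is counted here and below although it passed the filter only through its tumor values. *Rbl2* was lower at a limma adjusted p of 0.00784, and its log2 fold change of -0.65 was too small for a call. A gene was called when limma's Benjamini-Hochberg adjusted p was under 0.01 and its log2 fold change was at least 1 in size. The fold change was taken on log2(TPM + 1), which understates the change of genes with low TPM. Over all 16241 genes tested, 14.4% were called higher and 21.5% lower. Every tumor lay above every control for 5 of the 8 genes and for 28.3% of all genes tested, and below every control for 0 of 8 and for 35.7%. Over all these genes the log2 fold change had a median of -0.11.

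The largest fitted changes belonged to *Ccnd2* and *Cdk6*. *Ccnd2* rose by 6.15 ± 0.45 on the log2 scale (SE, adjusted p = 6.34e-07), the 14th highest change of all genes tested. *Cdk6* rose by 5.18 ± 0.26 (SE, adjusted p = 5.12e-08). The other 3 genes had smaller fitted values, with *Cdk4* at 3.28 ± 0.13 (SE, adjusted p = 2.11e-08) and *Ccnd1* at 3.18 ± 0.17 (SE, adjusted p = 6.66e-08). *Rbl1* had a log2 fold change of 2.17 ± 0.18 (SE, adjusted p = 1.82e-06). These 5 genes were called in all 21 settings in which each was fitted, with either control genotype alone or with any 1 library left out.

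*Ccnd3* and *Rb1* were not called. The log2 fold change was 0.15 for *Ccnd3*, with a 95% confidence half-width of 0.21 (adjusted p = 0.193), and 0.21 for *Rb1*, with a half-width of 0.43 (adjusted p = 0.351). *Rbl2* had a log2 fold change of -0.65 ± 0.18 (SE) and an adjusted p of 0.00784, past the p threshold and short of the fold minimum. With the tumor of GB359 left out its value was the lowest of all settings, at -0.94, which was still short of that minimum.

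**Figure D2:**
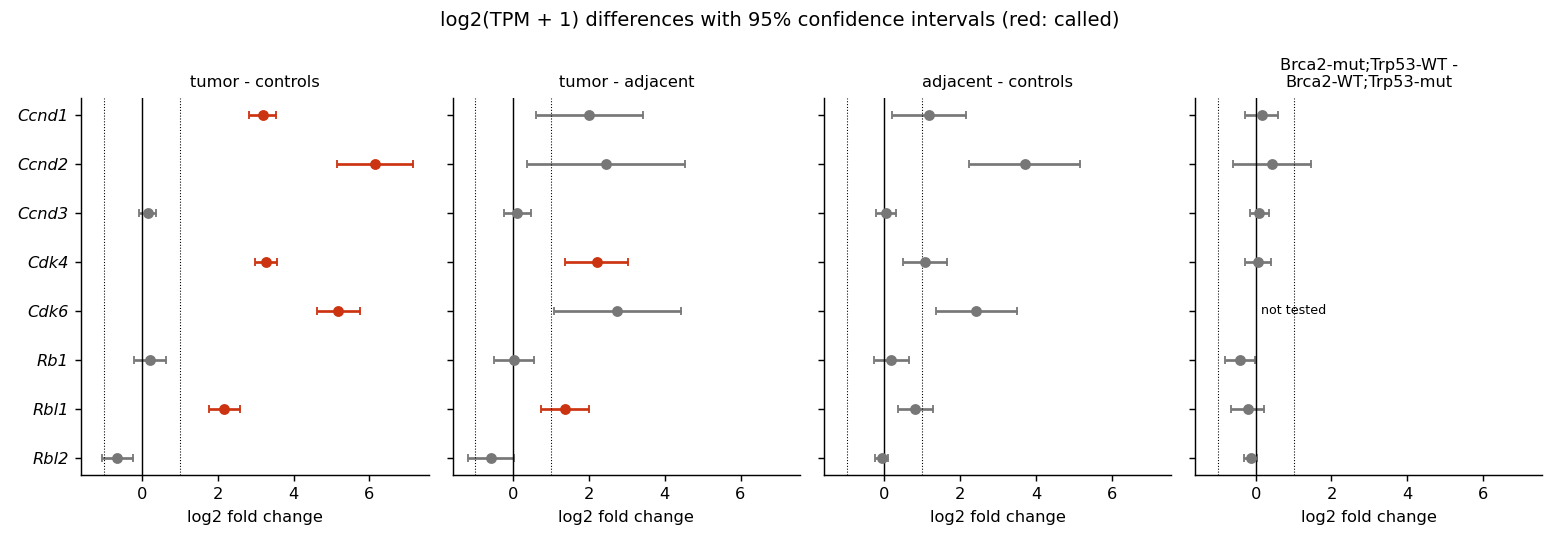
Log2 fold change (x axis) of the 8 genes in the 4 comparisons, with 95% confidence intervals from limma, dotted lines at the fold minimum and called genes in red. Tumors against controls carried 5 called genes and tumors against adjacent cerebellum 2 (*Cdk4* and *Rbl1*), all higher. Of all genes tested, 14.4% and 4.76% were called higher in these comparisons. *Cdk6*, among the 5, passed the filter against controls only through its tumor values.

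Within each set the make-up differed between tumor and control tissue. *Ccnd3* supplied 60.5 ± 4.6% (SD, n = 6) of D cyclin TPM in the controls, *Ccnd1* 31.4 ± 3.9% and *Ccnd2* 8.16 ± 3.7%. In the tumors *Ccnd2* supplied 63.4 ± 11.8% (SD, n = 3), *Ccnd1* 29.6 ± 8.5% and *Ccnd3* 7.07 ± 3.4%. The shares of *Ccnd2* did not overlap, at 4.66 to 15.0% in controls and 49.9985 to 72.5% in tumors, whereas those of *Ccnd1* did. The GB344 tumor had the lowest ratio of *Ccnd2* to *Ccnd1*, at 1.28, against 3.16 in GB359 and 2.53 in GB370, and 0.147 to 0.515 in the controls. Summed D cyclin TPM was 873 ± 326 (SD, n = 3) in the tumors and 82.2 ± 12.7 (SD, n = 6) in the controls.

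*Cdk4* was the main kinase in every sample. It made up 98.8 ± 0.3% (SD, n = 6) of the summed TPM of both kinases in the controls and 91.2 ± 3.8% (SD, n = 3) in the tumors. The share of *Cdk6* ran from 0.912 to 1.61% in controls and from 5.84 to 13.1% in tumors, with no overlap. Summed kinase TPM was 799.9 ± 99.6 in the tumors and 75.3 ± 12.3 in the controls.

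The summed pocket protein TPM overlapped between the groups, at 78.7 ± 17.4 TPM (SD, n = 3) in the tumors and 68.4 ± 10.2 TPM (SD, n = 6) in the controls. The parts differed. *Rb1* held 46.3 ± 3.3% in the tumors and 45.7 ± 4.1% in the controls. The share of *Rbl1* was 26.9 ± 4.8% in the tumors and 5.63 ± 0.78% in the controls, and that of *Rbl2* was 26.7 ± 4.4% and 48.7 ± 4.2%. Neither share overlapped between these groups. In the tumors of GB344 and GB370 there was more *Rbl1* than *Rbl2*, at ratios of 1.03 and 1.36, whereas the ratio was 0.727 in GB359 and at most 0.141 in any control. These shares are a description, with no test.

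**Figure D3:**
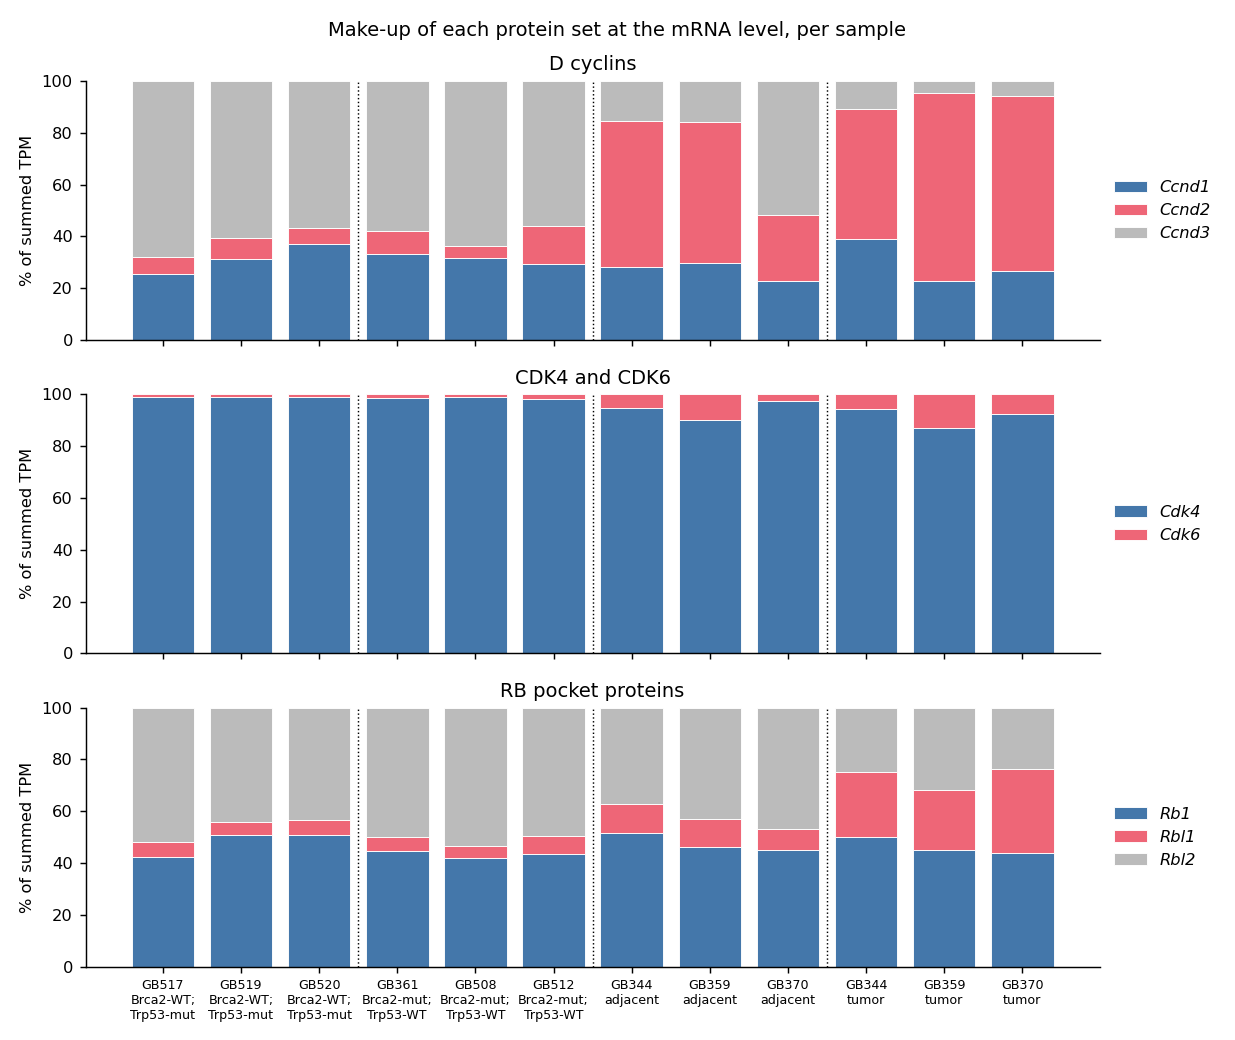
Share of summed TPM (percent, y axis) of each gene within the D cyclins, CDK4 and CDK6, and the RB pocket proteins in each of the 12 samples, with dotted lines between the groups. *Ccnd2* takes 49.9985 to 72.5% of the D cyclins in the tumors, and the adjacent cerebella of GB344 and GB359 lie nearer to the tumors than that of GB370.

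The comparison of tumor with adjacent cerebellum shares its mice between the groups. *Cdk4* and *Rbl1* were higher in tumor, with log2 fold changes of 2.21 ± 0.35 (SE, adjusted p = 0.00268) and 1.36 ± 0.27 (SE, adjusted p = 0.00632). Over the 15845 genes tested, 4.76% were called higher and 18.0% lower. With the mouse as a block, 1 of the 8 genes was called, since the adjusted p of *Rbl1* was then 0.0166. Another scaling changed the split of calls over all genes from 755 higher and 2852 lower to 1296 and 2476 (median of ratios) or 1603 and 2192 (quantile). Both called genes depended on single libraries. Without the tumor of GB359 the adjusted p of *Cdk4* was 0.010003 and without that of GB370 it was 0.0125, and for *Rbl1* it was 0.0238 and 0.0252. *Rbl1* also missed the threshold without the adjacent sample of GB359 (adjusted p = 0.0229) or of GB370 (adjusted p = 0.0144).

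The other 3 genes that rose against the controls were not called against adjacent tissue, although every tumor was above every adjacent sample for these 3 genes, for *Cdk4* and *Rbl1*, and for 23.7% of all genes tested. *Cdk6* had a log2 fold change of 2.75 ± 0.70 (SE, adjusted p = 0.0167), *Ccnd2* of 2.45 ± 0.88 (SE, adjusted p = 0.0530) and *Ccnd1* of 2.01 ± 0.60 (SE, adjusted p = 0.0282). With all 4 groups in a single fit, *Cdk6* and *Ccnd1* passed as well, at adjusted p of 0.00153 and 0.00411. Without the adjacent sample of GB370, *Ccnd1* was called at a log2 fold change of 1.26 (adjusted p = 0.00419). *Rbl2* was at -0.58 ± 0.26 (SE, adjusted p = 0.101), *Ccnd3* at 0.10 and *Rb1* at 0.02.

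The 3 mice differed in how far tumor and adjacent tissue lay apart. The ratio of tumor to adjacent TPM for *Ccnd2* was 1.14 in GB344, 5.13 in GB359 and 29.4 in GB370. For *Cdk6* it was 3.21, 4.80 and 30.8, for *Cdk4* 2.97, 3.47 and 9.71, for *Ccnd1* 1.79, 2.96 and 13.1, and for *Rbl1* 1.59, 2.95 and 4.61. All 5 genes had their lowest ratio in GB344 and their highest in GB370. *Ccnd3* (0.903 to 1.25) and *Rb1* (0.699 to 1.302) had ratios on both sides of 1, and *Rbl2* was lower in tumor in each mouse (0.479, 0.990 and 0.602).

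The adjacent level was also set on a scale from the control mean (0%) to the tumor of the same mouse (100%). In GB344 it stood at 49.4% for *Ccnd1*, 87.6% for *Ccnd2*, 25.4% for *Cdk4*, 29.6% for *Cdk6* and 51.4% for *Rbl1*. In GB359 the 5 genes lay closer together, between 18.8% (*Ccnd2*) and 26.5% (*Ccnd1*). In GB370 they lay between -2.49% (*Ccnd1*) and 6.51% (*Rbl1*). On the same scale the progenitor gene *Atoh1* stood at 49.9%, 20.7% and 1.54% in GB344, GB359 and GB370, and the proliferation gene *Mki67* at 48.7%, 23.1% and 1.99%. On this scale *Atoh1*, *Mki67* and the 5 genes were highest in GB344 and lowest in GB370. *Mycn* had another order, at 10.7% in GB344, 21.4% in GB359 and 1.80% in GB370. In TPM the adjacent level of *Cdk6* was higher in GB359 (21.1 TPM) than in GB344 (13.0 TPM). The part of the markers in the result was not tested.

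**Figure D4:**
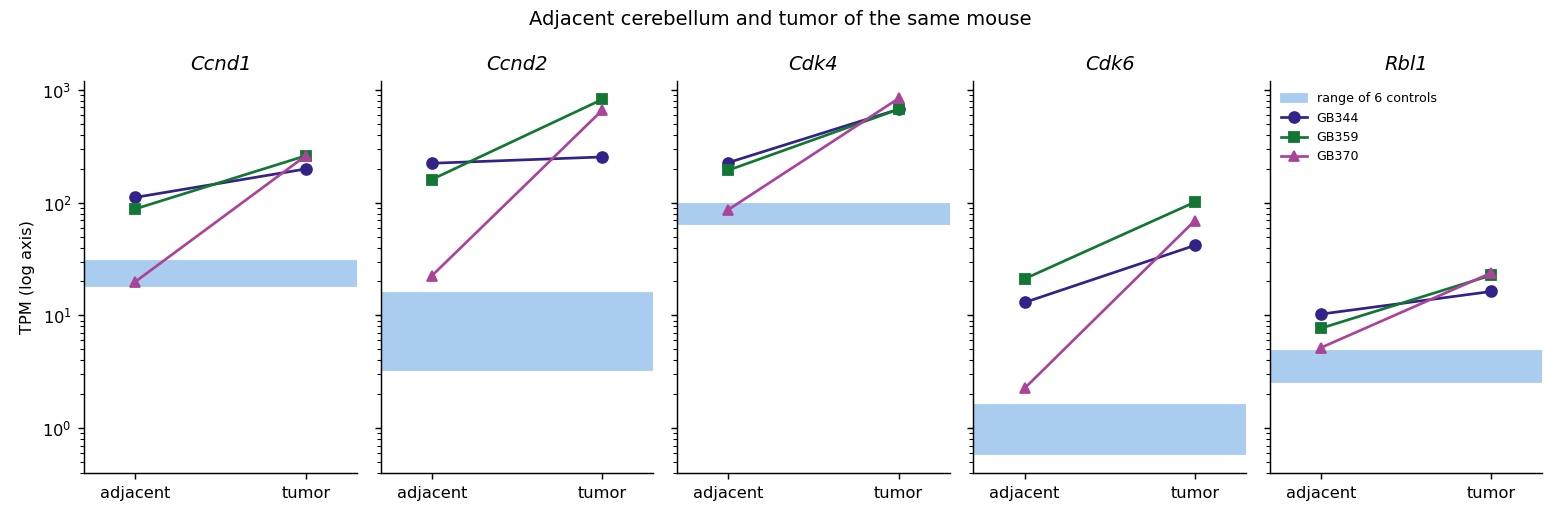
TPM (log axis) of the 5 genes that rose in tumors against controls, in the adjacent cerebellum and the tumor of each mouse, joined by a line per mouse, with the range of the 6 controls as a band. All lines run upward, and the adjacent sample of GB370 lies in or nearest to the control band in each plot.

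Adjacent cerebellum, labelled as normal, was compared with the same 6 controls to ask whether it sat at the control level. Whether it held tumor cells was not tested. None of the 8 genes was called in limma, and at an unadjusted p under 0.05 there were 5 (*Ccnd1*, *Ccnd2*, *Cdk4*, *Cdk6* and *Rbl1*), a level that 34.5% of all genes tested reached. *Cdk6* entered this test only through its adjacent values and GB512. Over the 16091 genes tested, 0.224% were called higher and 0.0124% lower. The log2 fold changes were 3.70 ± 0.66 for *Ccnd2* (SE, adjusted p = 0.0132), 2.43 ± 0.48 for *Cdk6* (SE, adjusted p = 0.0168), 1.07 ± 0.26 for *Cdk4* (SE, adjusted p = 0.0269), 1.17 ± 0.44 for *Ccnd1* (SE, adjusted p = 0.0916) and 0.81 ± 0.21 for *Rbl1* (SE, adjusted p = 0.0320). *Ccnd2*, *Cdk6* and *Rbl1* were higher in all 3 adjacent samples than in any control, as were 11.7% of all genes tested. With the adjacent sample of GB370 left out, all 5 genes were called, at log2 fold changes of 4.71, 3.24, 1.495, 1.92 and 1.04 in the same order. *Ccnd3* (0.04), *Rb1* (0.18) and *Rbl2* (-0.08) were not called, and the signs of *Ccnd3* and *Rb1* changed with single settings. This comparison shares its control samples with that of tumors and its adjacent samples with the one before.

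The Brca2-mut and Trp53-mut controls were compared to see whether the genotypes differed without a tumor. Of the 8 genes 7 were tested and none was called by limma, 1 of them at an unadjusted p under 0.05 (*Rb1*), as were 20.1% of all genes tested. Of the 15575 genes tested, 0.0128% were called higher and 0.0449% lower in the Brca2-mut controls. *Rb1* averaged 26.8 ± 3.4 TPM in the Brca2-mut and 36.4 ± 7.8 TPM in the Trp53-mut controls (SD, n = 3 each), a log2 fold change of -0.41 ± 0.17 (SE, adjusted p = 0.229). *Rbl2* was 29.3 to 32.7 TPM in the Brca2-mut and 33.3 to 36.5 TPM in the Trp53-mut controls, and these ranges did not overlap, with an adjusted p of 0.375. All Brca2-mut controls lay below all Trp53-mut controls for 20.3% of the genes tested. *Cdk6* was not tested because 1 of the 6 samples reached 1 TPM. *Ccnd2* had the widest 95% confidence half-width, 1.02 around a log2 fold change of 0.43, which did not exclude a difference of more than the fold minimum.

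GB512 stood out among the controls. It had the highest control level of *Ccnd2* (15.7 TPM), *Cdk4* (97.9 TPM), *Cdk6* (1.604 TPM), *Ccnd1* and *Ccnd3*. *Mki67* was at 5.63 TPM and the cyclin gene *Ccna2* at 11.2 TPM in GB512, whereas *Atoh1* was at 0.0689 TPM. *Cdkn2a* in this sample was at 7.74 TPM, against 0 to 1.73 TPM in the other 5 controls. Oligodendrocyte precursor markers summed to 214 TPM in GB512 and to 103 to 117 TPM in the other 5 controls. The part of cell mixture in the values of GB512 was not tested.

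Upstream and downstream genes of the switch were taken from lists by role. Over all genes tested in tumors against controls, 14.4% were called higher and 21.5% lower. The CDK inhibitors bind the kinases (INK4) or their complexes with cyclins (KIP). Of 7 inhibitor genes 5 reached 1 TPM in at least 3 controls, and 1 of those 5 (*Cdkn2c*) was called higher and 0 lower in tumors against controls, with a median log2 fold change of 0.45. *Cdkn2a* and *Cdkn2b* did not reach that level and were tested only through their tumor values, like *Cdk6*, and both were called higher. *Cdkn2a*, which encodes the CDK4 and CDK6 inhibitor p16 and the p53 activator ARF, was at 126, 115 and 321 TPM in the tumors of GB344, GB359 and GB370 and at 0 to 7.74 TPM in the controls (log2 fold change 6.44 ± 0.66, SE, adjusted p = 8.03e-06). *Cdkn2c*, encoding p18, was at 85.2 ± 45.3 TPM (SD, n = 3) in the tumors and 7.17 ± 1.37 TPM (SD, n = 6) in the controls. The KIP gene *Cdkn1b*, encoding p27, had a log2 fold change of 0.78, short of the fold minimum. Gene-level TPM cannot separate the p16 and ARF transcripts.

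Most E2F target genes were higher in the tumors as well, where 14.4% of all genes tested were called higher. Of 21 S phase genes known as E2F targets, 18 reached 1 TPM in at least 3 controls, and 17 of those 18 were called higher, with a median log2 fold change of 3.02. *Ccne1* fell just short of the fold minimum at 0.99. *Cdc6*, *Tk1* and *Mki67* were tested only through the tumors and were called too. *Mki67* was at 113 ± 31 TPM (SD, n = 3) in the tumors and 1.16 ± 2.19 TPM (SD, n = 6) in the controls, and *Ccna2*, cyclin A2, was at 163 ± 12 and 3.41 ± 3.84 TPM. Of 10 E2F and DP factors 8 reached 1 TPM in at least 3 controls, and 4 of those 8 were called higher, led by *E2f1* (78.5 ± 19.2 against 2.61 ± 0.44 TPM). The atypical repressor *E2f8* (22.1 ± 1.5 against 0.431 ± 0.534 TPM) and *E2f2* passed the filter only through the tumors and were called. *E2f4* and *E2f5*, which pair with p107 and p130, had log2 fold changes of 0.54 and 0.54 and were not called. In the MuvB group, whose core joins p130 to silence genes in resting cells and B-MYB or FOXM1 to activate them in dividing cells, 6 of 8 genes reached 1 TPM in at least 3 controls and 2 of those 6 were called higher (*Rbbp4* and *Lin9*). *Foxm1* (72.2 ± 18.3 against 1.26 ± 1.55 TPM) and *Mybl2* (36.6 ± 7.7 against 0.775 ± 0.533 TPM) were called and again passed the filter only through the tumors.

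Most hedgehog and MYC genes were higher too, while the genes whose products act on D cyclins and CDK4 after translation were mostly not called. Of 10 hedgehog and MYC genes, all of which reached 1 TPM in at least 3 controls, 8 were called higher, with a median log2 fold change of 2.74. The shares over all genes tested were 14.4% called higher and 21.5% lower. *Mycn*, the MYC family gene downstream of hedgehog in granule cell progenitors, was at 1133 TPM in the GB344 tumor, 356 TPM in GB359 and 344 TPM in GB370, and at 3.49 to 6.67 TPM in the controls. *Ptch1*, the hedgehog receptor, was not called, at 146, 237 and 303 TPM in the tumors and 184 to 220 TPM in the controls (adjusted p = 0.527). Of 10 genes for D cyclin turnover and CDK4 assembly 9 were not called, including the D cyclin degrader *Ambra1* and the CDK4 chaperone *Cdc37*, and the median was -0.09. The exception was *Usp2*, a deubiquitinase of cyclin D1, at 7.37 ± 1.18 TPM (SD, n = 3) in the tumors, 86.1 ± 18.8 TPM (SD, n = 3) in adjacent cerebellum and 76.6 ± 12.2 TPM (SD, n = 6) in the controls. Of the 3 genes of the CDK-activating kinase, *Ccnh* (cyclin H) was called lower, at 26.4 ± 0.7 against 64.9 ± 5.1 TPM. *Cdk7* fell just short of the fold minimum, at a log2 fold change of -0.996 (limma adjusted p = 1.14e-05). *Mnat1* was at 0.18 (adjusted p = 0.227).

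Against adjacent cerebellum fewer of these genes were called. The counts higher were 7 of 21 S phase genes, 2 of 7 inhibitors (*Cdkn2a* and *Cdkn2b*), 2 of 10 hedgehog and MYC genes (*Gli1* and *Smo*), 1 of 10 E2F and DP factors (*Tfdp1*) and 1 of 8 MuvB genes (*Lin9*). Over all genes tested in this comparison, 4.76% were called higher and 18.0% lower. *Usp2* was again called lower, at a log2 fold change of -3.37 ± 0.20 (SE, adjusted p = 0.000186), as was *Cdkn1a*, which encodes p21, at -1.70 ± 0.24 (SE, adjusted p = 0.00165). *Cdkn1a* was at 1.14 in adjacent against control cerebellum (adjusted p = 0.0116) and at -0.56 in tumors against controls (adjusted p = 0.0223). Limma called it in neither of these comparisons. Between adjacent and control cerebellum limma called none of the 68 list genes tested, 48 of them at an unadjusted p under 0.05, a level that 34.5% of all genes reached. Among the 48 are *Cdkn2a*, *Cdkn2b*, *E2f2*, *E2f8*, *Mybl2*, *Foxm1*, *Tk1* and *Mki67*. These did not reach 1 TPM in at least 3 controls and passed the filter only with their adjacent values, which raises that count. Between the control genotypes it called none of 60, 5 of them at an unadjusted p under 0.05, a level that 20.1% of all genes reached.

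**Figure D5:**
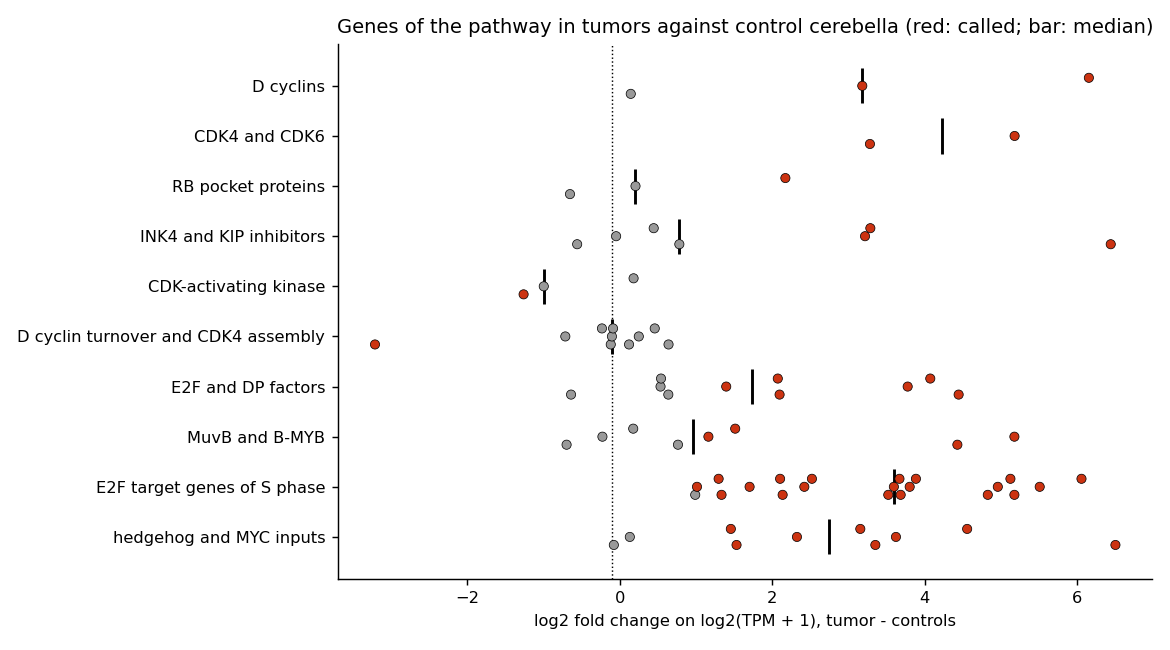
Log2 fold change of each gene (x axis, on log2(TPM + 1)) in tumors against the 6 controls, by list, with called genes in red, the list median as a bar and the median of all genes tested (-0.11) as a dotted line. Of the 21 S phase genes 20 are red, among them 3 that passed the filter only through the tumors, and *Usp2* lies furthest to the left of all genes drawn. Of all genes tested 14.4% were called higher.

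The genes most like each member over the 12 samples were sought by Pearson's r on log2(TPM + 1) among 12736 genes with a mean of at least 5 TPM. The samples fall into the 4 groups and include 3 pairs from the same mice, so r mainly records the steps between groups and is given with no test. *Cdk4* was nearest to *Rfc2*, *Snrpg* and *Pcna* (r of 0.998 each), of which *Rfc2* and *Pcna* belong to the replication fork. *Cdk6* was nearest to *Mycl* (0.995) and the replication helicase genes *Mcm6* (0.995) and *Mcm5* (0.992). *Ccnd1* was nearest to *Neil3*, *Smc2* and *Cenpq* (0.993, 0.993 and 0.991), and *Rbl1* to *Pask*, *Thrap3* and *Dazap1* (0.993, 0.993 and 0.991). The nearest genes to *Ccnd2* were *Cd68*, *Nkd1* and *Grn* (0.992, 0.991 and 0.991), of which *Cd68* is a macrophage marker.

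The 3 genes without a called change had lower r with their nearest genes. *Rbl2* was nearest to *Hecw2*, *Zfp935* and *Klhl2* (0.982, 0.979 and 0.969) and *Rb1* to *Tubgcp4*, *Rcor3* and *Map4k5* (0.919, 0.917 and 0.898). *Ccnd3* had the weakest match, with *Wdtc1* at 0.841, *Mir1932* at 0.821 and *Unc119b* at 0.789. *Ccnd3* varied little over the 12 samples, so these values rest on small differences.

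Exons of neighbouring genes limit the reading of some members. Protein-coding genes on the opposite strand overlap exons of *Cdk4* (*Tspan31*), *Ccnd1* (*LTO1*), *Ccnd3* (*Bysl*), *Rb1* (*Lpar6* and *Rcbtb2*) and *Rbl2* (*Aktip*). With all annotated genes counted, antisense and intronic RNA genes included, another gene covered 19.7% of the exonic bases of *Cdk4*, 23.4% of those of *Ccnd1* and 21.0% of those of *Rbl2*. The named library kit does not mark strand, so reads from the shared bases cannot be assigned by direction. No exon of *Rbl1* is overlapped by another gene.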

How the data were processed

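RNA of 12 mouse cerebellar samples was enriched for poly(A) RNA and sequenced from a library kit that does not mark strand. The authors quantified transcripts with Salmon 0.8.1 on mm10, per the submitters' processing notes, summed them to genes and deposited TPM values for 24091 genes. Counts were not used here, so the count test of the study's methods was replaced by limma. Each sample summed to 999793 to 999876 TPM, with 15088 to 15803 genes at 1 TPM or more, and *Mir6236*, a short RNA gene of uncertain quantification, took 4.25 to 11.5% of all TPM. Read depth is unknown from TPM, so no counting intervals or detection limits are given, and precision rests on the spread between mice.

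The values used were log2(TPM + 1). A gene was fitted when 3 or more samples of the comparison reached 1 TPM, by limma 3.58.1 in R 4.3.3 (lmFit, eBayes with an intensity trend), and p-values were adjusted over all fitted genes by Benjamini-Hochberg. Calls took the thresholds in the study's methods (adjusted p below 0.01, log2 fold change of 1 or more in either direction). Each fit held only the groups compared. The scripts were tested on simulated data. Tumor and adjacent samples pair by mouse through the numbers in their titles, and deviations from the group means of same-mouse samples correlated at 0.249 (GB344), 0.176 (GB359) and 0.152 (GB370). Nothing pairs the control genotypes.

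Genes named in the text are the 8 members, the 3 genes of highest Pearson r with each, and, for each list, the 2 largest called rises and the 2 largest called falls in tumors against controls. A single gene that this rule names is not reported here. *Atoh1*, *Zic1*, *Cdc6*, *Tk1*, *E2f2*, *Rbbp4*, *Cdkn2b*, *Cdkn1a*, *Cdkn1b*, *Ccne1*, *E2f4*, *E2f5*, *Tfdp1*, *Lin9*, *Gli1*, *Smo*, *Ptch1*, *Ambra1*, *Cdc37*, *Cdk7* and *Mnat1* were named for their role or after their values were seen. The members and lists were chosen with earlier results of these data known, so no count over a list is independent evidence. Positions and promoter sequences are from RefSeq (GRCm38.p6), and exon overlaps from GENCODE M21. Alternatives were other pseudocounts (0.1, 0.01), filters (none, 5 TPM), scalings, variance models, control groups, thresholds, the mouse as a block, and each sample left out in turn. Further steps used Python 3.11.15 with pandas 2.3.3, numpy 2.4.6, scipy 1.17.1 and matplotlib 3.10.9. No sample column was left unused (0).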

Additional observations from a re-analysis of the deposited data

Results flagged for a closer look

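The control GB512 (Brca2-mut;Trp53-WT) lay far from the other 5 controls for 3 of the 8 genes, by the gap to the nearest sample over the range of the 6. *Ccnd2* was at 15.7 TPM there, against 7.48 TPM in the next sample (ratio 0.662). *Cdk4* was at 97.9 TPM, against 73.5 TPM (ratio 0.725), and *Cdk6* at 1.604 TPM, against 0.969 TPM (ratio 0.627). Chance puts about 1 in 20 such groups past this value, and 8 genes measured in the same 6 samples were examined. The calls of these genes in tumors against controls held with GB512 left out.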

How the results depend on the processing

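In tumors against controls, the 5 called genes were called in all 21 settings each and no sign changed, and only an adjusted p under 0.05 without a fold minimum added a call (1 lower, *Rbl2*). In tumors against adjacent cerebellum, 2 members were called higher. The count was 1 with no filter on low TPM, 1 with the mouse as replicate block 3 with quantile normalization (adding *Cdk6*) and 4 each with all 4 groups in a fit and at an adjusted p under 0.05, and 0 to 2 with a sample left out (0 without the tumor of GB359 or of GB370, 1 without the adjacent sample of GB359). The block changed no other call. *Rb1* changed sign there when a sample was left out (-0.14 to 0.21). Over all genes, 755 were called higher there, and 189 to 1603 under other settings at the same thresholds.

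In adjacent against control cerebellum, 0 members were called, 4 at an adjusted p under 0.05, and 0 to 5 with a sample left out (5 without the adjacent sample of GB370). Over all genes the count higher was 36, and 0 to 564 under other settings at the same thresholds. *Ccnd3* changed sign under median of ratios scaling (-0.0304), quantile normalization (-0.0328) and Brca2-mut;Trp53-WT controls alone (-0.0054), and *Rb1* with Brca2-WT;Trp53-mut controls alone (-0.0242). With a sample left out, *Ccnd3* ran from -0.0960 to 0.117 and *Rb1* from -0.0075 to 0.346, the lowest without the adjacent sample of GB344. Between the control genotypes, *Ccnd2* (-0.0601 to 0.92), *Ccnd3* (-0.0086 to 0.18) and *Cdk4* (-0.112 to 0.19) changed sign without GB512, and *Ccnd1* (-0.0298 to 0.29) without GB517. The cause was not tested. Quantile normalization moved the median of all genes by 0.15 in tumors against controls and by 0.26 against adjacent cerebellum, and median of ratios scaling by 0.16 in the latter.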
